A study of Mus musculus with 15 samples.

Results

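Heparan sulfate is a sugar chain carried by cell surface and matrix proteoglycans, and the enzymes that build, sulfate and trim it are described here across the fractions of injured mouse cortex. The account covers 10 genes, chosen by name: the 3-O-sulfotransferases Hs3st1, Hs3st2, Hs3st4 and Hs3st3b1, the 6-O-sulfotransferases Hs6st1 and Hs6st2, the 2-O-sulfotransferase Hs2st1, the N-deacetylase and N-sulfotransferase Ndst1, the chain polymerase Ext1, and the extracellular 6-O-endosulfatase Sulf2. All 10 were found among the 33223 genes of the count tables. The set was put together because Hs3st2 was higher in the flow-through of knockout animals, so the flow-through comparison of genotypes is given as a description, with no p for these genes.

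In the Golgi, exostosins polymerise the chain, Ndst enzymes replace acetyl groups by sulfate on part of the glucosamines, and the 2-O-, 6-O- and 3-O-sulfotransferases act on the regions so marked. 3-O-sulfation comes last and is the rarest of these steps, and it creates binding sites for particular proteins, of which the antithrombin site made by Hs3st1 is the best known. Hs3st2 and Hs3st4 are known for their expression in brain, mainly in neurons. Once the chain is outside the cell, Sulf enzymes remove 6-O-sulfate and heparanase cuts the chain, which alters the binding of growth factors, morphogens and chemokines.

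The libraries were bulk RNA-seq of ipsilateral cortex taken 1 day after a moderate controlled cortical impact, a piston injury that models traumatic brain injury, to the right parietal cortex. All mice carried floxed EphA4 alleles. The WT mice were EphA4 f/f animals labelled WT, and the KO mice were EphA4 f/f with VeCadCreERT2, an inducible Cre under the promoter of VE-cadherin, so that the deletion is aimed at endothelial cells and other cells keep the gene. Every animal was injured, and age, sex and the number of animals behind a library are not given in the labels used here. The dissociated tissue was passed over CD45 and CD31 microbeads, and RNA was taken from the flow-through, labelled as the other cortical cells, and from the bound CD45 cells, a class of leukocytes that includes microglia. The comparisons used 14 of the 15 libraries: flow-through from WT (4) and KO (3), and CD45 cells from WT (3) and KO (4). The labels do not name animals, so a p-value here sets differences against the spread among libraries, which may be technical.

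Library totals were 19204814 to 27270907 counts in the flow-through and 11574414 to 31337948 in the CD45 fraction. The targeted gene Epha4 was at 38.5 to 43.0 CPM (counts scaled to a library total of 1e6) in the 4 flow-through WT libraries and at 36 to 42.2 CPM in the 3 KO libraries, and at 2.7 to 2.92 CPM in CD45 WT and 1.69 to 3.54 CPM in CD45 KO. In bulk tissue, where endothelial cells are few, these gene totals do not check the deletion. Ptprc, which encodes CD45, was at 805 to 1043 CPM in the CD45 libraries and at 0.660 to 1.22 CPM in the flow-through. The remaining library disagrees with its label. Labelled WT flow-through, replicate 5, it is a column of the CD45 count table and had 906 CPM of Ptprc; it was left out of every comparison, and results with it are given with the processing alternatives. Marker lists separated the fractions: microglial markers summed to 4045 to 5294 CPM in CD45 and 140 to 172 CPM in flow-through libraries, and oligodendrocyte markers to 383 to 1514 CPM and 23682 to 39418 CPM. Endothelial markers, the class that CD31 beads bind, summed to 240 to 370 CPM in the flow-through and to 699 to 900 CPM in the CD45 fraction.

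Hs3st2 (ENSMUSG00000046321; GRCm38 chr7:121391859-121501770, plus strand) adds sulfate to the 3-O position of glucosamine in heparan sulfate. In the flow-through it was at 1.55, 0.856, 1.05 and 1.18 CPM in the 4 WT libraries and at 4.32, 5.47 and 3.74 CPM in the 3 KO libraries. Every KO library lay above every WT library. The WT mean was 1.16 ± 0.291 CPM (SD, n = 4), the KO mean 4.51 ± 0.879 CPM (SD, n = 3), and the log2 ratio of KO to WT was 1.98 (SE 0.25). These values rest on 19 to 33 counts per WT library and 95 to 105 counts per KO library. Among all genes tested in this comparison, 3 had a larger log2 fold change.

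The level of Hs3st2 in the CD45 fraction was lower and more scattered. It was at 0.124, 0.317 and 0.347 CPM in the 3 WT libraries and at 0.383, 1.99, 0.259 and 0.926 CPM in the 4 KO libraries. The lowest KO library lay below 2 of the WT libraries, and the KO library at 1.99 CPM, replicate 2, stood above the other 3. The counts behind these values were 3 to 9 in WT and 3 to 41 in KO libraries, too few for the gene to pass the filter on low counts in this fraction. The group means were 0.262 ± 0.121 CPM (SD, n = 3) and 0.889 ± 0.788 CPM (SD, n = 4), and an exact two-sided permutation test (35 arrangements of the libraries) gave p = 0.229, where the smallest p this design allows is 0.0571. Without KO replicate 2 the KO mean was 0.523 CPM and the exact permutation p was 0.4, with 0.1 the smallest possible. With no filter on low counts, edgeR gave a log2 ratio of 1.72 (SE 0.63) with an unadjusted p of 0.0116 and an adjusted p of 0.842 over the 27922 genes then tested.

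**Figure D1:**
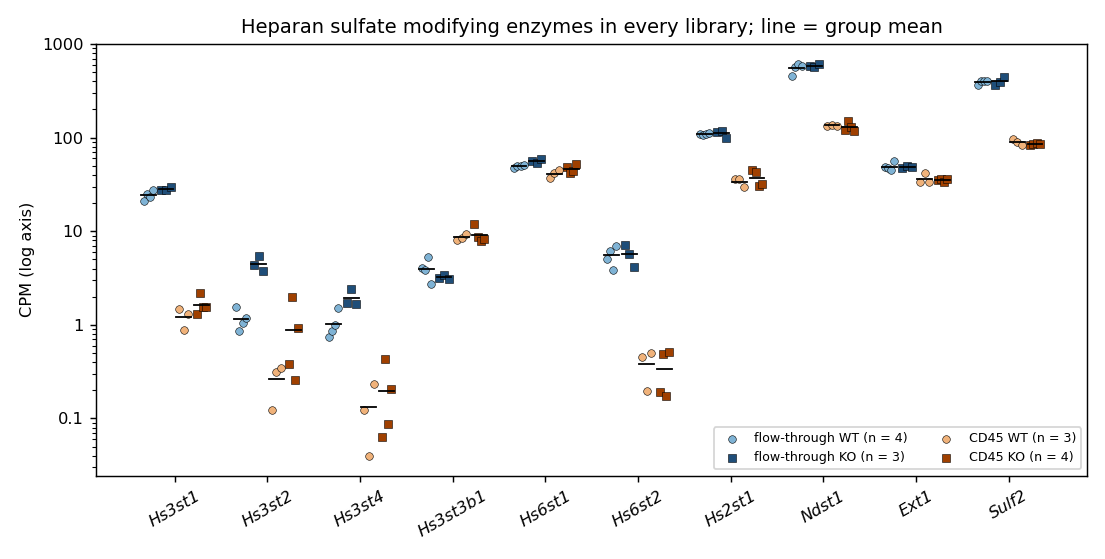
CPM (log axis) of the 10 enzymes in each of the 14 libraries; each point is a library, coloured by fraction and genotype, and the short line is the group mean. Hs3st2 in the 3 flow-through KO libraries (3.74 to 5.47 CPM) lies above the 4 WT libraries (0.856 to 1.55 CPM), and within each genotype 9 of the 10 genes, all but Hs3st3b1, lie lower in CD45 than in flow-through libraries on this scale; across genotypes the fractions overlap for Hs3st2 and Hs6st1.

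Exons of Hs3st2 share 276 bases, 9.05% of its exon length, with Gm36736 on the opposite strand. Whether the counting used strand is not given in the sources used here, so the value of Hs3st2 is uncertain to that extent; Gm36736 itself held 0 to 3 counts per library. Hs3st4 shares 130 exon bases with Gm27040, Hs6st1 447 with Gm37335 and Sulf2 154 with Ncoa3, and of these only Ncoa3 had many counts, 1320 to 7561 per library.

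Promoter sequence is shown for Hs3st2, the member with the largest ratio of KO to WT in the flow-through, and for Hs3st3b1, the family member with the opposite distribution between fractions. Each run is the 250 bases before the RefSeq start (GRCm38.p6), 5′ to 3′ on the gene's strand, at chr7:121392046-121392295 on the plus strand for Hs3st2 and chr11:63922285-63922534 on the minus strand for Hs3st3b1. Capitals mark 2 motifs, the cyclic AMP response element TGACGTCA and the GC box GGGCGG or its reverse complement CCGCCC.
Hs3st2: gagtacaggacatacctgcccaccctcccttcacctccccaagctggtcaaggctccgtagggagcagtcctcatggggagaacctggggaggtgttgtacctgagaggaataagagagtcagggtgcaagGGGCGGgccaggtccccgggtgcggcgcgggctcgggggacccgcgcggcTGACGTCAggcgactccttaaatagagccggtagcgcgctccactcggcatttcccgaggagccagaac
Hs3st3b1: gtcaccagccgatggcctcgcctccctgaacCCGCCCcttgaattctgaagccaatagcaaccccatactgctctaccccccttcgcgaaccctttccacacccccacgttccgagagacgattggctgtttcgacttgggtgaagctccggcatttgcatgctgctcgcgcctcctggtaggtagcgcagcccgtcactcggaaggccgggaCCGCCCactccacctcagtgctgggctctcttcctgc
In windows that also took in the 50 bases after the start, TGACGTCA was found in 1.79% of 32851 RefSeq promoters and, of the 8 members with a window in the table, in Hs3st2 alone, where it begins 69 bases before the start. The GC box, searched on both strands, was in 35.7% of all windows and in 7 of the 8 members, and begins 119 bases before the start in Hs3st2 and 219 and 37 bases before it in Hs3st3b1. CCAAT was in 37.4% of windows and in 4 members, TATAAA in 13.6% and in 2 members, and GCGTGGGCG in 0.612% and in no member; none of these overlaps TGACGTCA in letters, and GCGTGGGCG holds part of a GC box. The annotated gene in GENCODE M21 begins upstream of the window shown for Hs3st2, so other transcripts may start there. The motifs were chosen with these sequences in view, and a match is a description of letters only.

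The other 3-O-sulfotransferases had their own distribution. Hs3st1, which makes the antithrombin-binding site, was at 21, 25, 23 and 27.7 CPM in flow-through WT and at 27.7, 27.8 and 29.6 CPM in flow-through KO. Its KO libraries lay just above the highest WT library, with a log2 ratio of 0.26 (SE 0.10). Hs3st4, a close relative of Hs3st2, was at 0.749, 0.865, 0.991 and 1.5 CPM in flow-through WT and at 1.73, 2.40 and 1.69 CPM in flow-through KO. Here too no KO library overlapped a WT library, and the log2 fold change was 0.93 (SE 0.29). Hs3st3b1, which makes a site bound by a herpesvirus glycoprotein, was at 4.08, 3.88, 5.28 and 2.72 CPM in WT and at 3.18, 3.44 and 3.12 CPM in KO, with groups that overlapped and a log2 ratio of -0.28 (SE 0.23).

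For the 6 members outside the Hs3st family, the log2 differences between genotypes in the flow-through were at most 0.22. Hs6st1 was at 47.4 to 50.7 CPM in WT and at 53.9 to 59.5 CPM in KO libraries, with no overlap and a log2 ratio of 0.22 (SE 0.08). Hs6st2, Hs2st1, Ndst1, Ext1 and Sulf2 had log2 fold changes of 0.00 to 0.12, each with overlapping groups. Over the 10 genes, 9 had a positive log2 fold change, with a median of 0.09 beside -0.01 over all genes tested. Under the edgeR adjusted p threshold of 0.05, 1 of the 10 (Hs3st2) was called in this comparison, where 1.57% of the 16546 genes tested were called; in 1 fit of all 14 libraries, which called 30 genes, none of the 10 was called. KO libraries lay wholly above WT libraries for 4 of the 10, beside 5.19% of all genes tested. Since the set was chosen on this comparison, and Hs3st2 for its rise in it, neither the call nor those shares are read as support.

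In the CD45 fraction none of the members was called between genotypes, where 0% of 15660 genes tested were called by edgeR, 693 had an unadjusted p under 0.05 and DESeq2 called 10. Of the 10 members, 8 passed the filter on low counts, and their adjusted p ranged from 0.974 to 0.991. Hs3st1 was at 1.48, 0.872 and 1.31 CPM in WT and at 1.31, 2.18, 1.56 and 1.54 CPM in KO libraries, a log2 ratio of 0.39 (SE 0.33). The SE of the other tested members was 0.08 to 0.17, apart from 0.56 for Hs6st2, and their log2 fold changes lay between -0.19 and 0.15. Hs3st4 held too few reads to be tested, at 0.124, 0.0396 and 0.231 CPM in WT and 0.0638, 0.437, 0.0864 and 0.206 CPM in KO libraries. For every member the WT and KO libraries overlapped, whereas 5.09% of all genes tested had groups that did not.

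No gene was called for a different effect of genotype in the 2 fractions, of 18098 tested by edgeR (1305 with an unadjusted p under 0.05, and 46 called by DESeq2). That test holds the flow-through comparison on which the genes were chosen, so no p is given for them.

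Between fractions, most of the enzymes were lower in the CD45 cells and Hs3st3b1 was higher there. Among the 9 members other than Hs3st2, 6 fell and 2 rose in the CD45 fraction of WT animals and 6 fell and 1 rose in that of KO animals, at an edgeR adjusted p under 0.05. The 6 include Hs3st4 and Hs6st2, which passed the filter on low counts in these fits only through the flow-through libraries, where they were high. The background is high, since 81.6% of genes tested were called between fractions in WT and 78.9% in KO, with 41.7% and 40.8% called lower. The median log2 difference of all 10 members was -1.45 in WT and -1.72 in KO, beside -0.02 and -0.04 over all genes tested. In such bulk samples, fewer cells of a type and less RNA per cell cannot be told apart.

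Hs3st1 stood at 21 to 29.6 CPM over the 7 flow-through libraries and at 0.872 to 2.18 CPM over the 7 CD45 libraries. The log2 difference, CD45 over flow-through, was -3.68 (SE 0.20, edgeR adjusted p = 6.82e-09) in WT and -3.63 (SE 0.18, edgeR adjusted p = 5.67e-08) in KO. Hs3st4 held 1 to 9 counts per CD45 library and passed the filter on low counts only through the flow-through libraries, so no p is given. It was lower in CD45 by 2.30 on the log2 scale (SE 0.52) in WT and by 2.78 (SE 0.52) in KO. The size depends on single libraries: without CD45 WT replicate 3 the WT difference was -3.04, and without CD45 KO replicate 2 the KO difference was -3.52. For Hs3st2, whose flow-through values chose it, the log2 difference was -1.49 (SE 0.42) in WT and -1.83 (SE 0.52) in KO, with no overlap between fractions in either genotype. The difference between the KO fractions rests partly on 1 library: without CD45 KO replicate 2 it was -2.56.

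Hs3st3b1 was the exception in the family. It was at 2.72 to 5.28 CPM in the 7 flow-through libraries and at 8.07, 8.44 and 9.33 CPM in CD45 WT and 11.9, 8.59, 7.86 and 8.34 CPM in CD45 KO. Every CD45 library lay above every flow-through library, and the log2 difference was 1.73 (SE 0.22, edgeR adjusted p = 1.56e-05) in WT and 1.99 (SE 0.21, edgeR adjusted p = 1.06e-05) in KO. This gene and Hs3st3a1 share part of their sequence: 8.56% of the 50-base stretches of Hs3st3b1 transcripts occur in Hs3st3a1, so reads from the shared part could have been split or dropped, and both values are uncertain to that extent. No 50-base stretch was shared between Hs3st2 and Hs3st4.

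**Figure D2:**
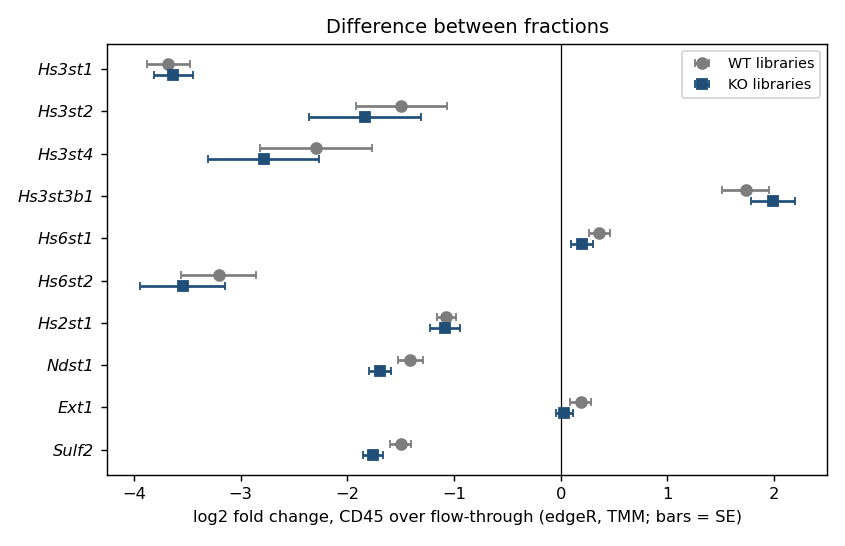
Log2 fold change of the CD45 fraction over the flow-through for each of the 10 enzymes, fitted by edgeR separately in WT and KO libraries; bars are standard errors. Hs3st1 lies at -3.68 and -3.63, Hs3st3b1 at 1.73 and 1.99, and Hs6st1 and Ext1 lie near 0, where the sign depends on the scaling.

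Hs6st2 fell most in the CD45 fraction among the 6 members outside the Hs3st family. It was at 3.85 to 7.14 CPM in flow-through and at 0.173 to 0.515 CPM in CD45 libraries, a log2 difference of -3.21 (SE 0.35) in WT and -3.54 (SE 0.40) in KO. Hs6st2 held 2 to 13 counts per CD45 library. It passed the filter on low counts in both fits only through the flow-through libraries, so no p is given. Hs6st1, the other 6-O-sulfotransferase, was at 47.4 to 59.5 CPM in the flow-through and at 36.7 to 52.2 CPM in CD45 libraries. With TMM scaling its log2 difference was 0.36 (SE 0.10, edgeR adjusted p = 0.00536) in WT and 0.20 (SE 0.10, edgeR adjusted p = 0.0982) in KO, but scaled by library totals it was -0.26 and -0.28 and by the upper quartile 0.02 and -0.05, so it has no direction that holds. Ext1, a subunit of the polymerase, behaved alike, at 0.19 (SE 0.10, edgeR adjusted p = 0.0988) and 0.03 (SE 0.08, edgeR adjusted p = 0.707) with TMM and at -0.43 and -0.45 with library totals. The scaling matters because the TMM factors, which correct for a few genes that take a large share of reads, differed between the fractions. Library totals move the median log2 difference of all genes to -0.637 in WT and -0.527 in KO.

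The abundant members fell by smaller amounts and with small errors. Ndst1 was at 455, 569, 612 and 576 CPM in flow-through WT and at 135, 138 and 133 CPM in CD45 WT, a log2 difference of -1.41 (SE 0.12, edgeR adjusted p = 3.76e-07), and it fell by 1.69 (SE 0.10, edgeR adjusted p = 1.61e-07) in KO. Sulf2, which removes 6-O-sulfate outside the cell, was at 366, 399, 406 and 403 CPM in flow-through WT and at 96.4, 90.8 and 84.2 CPM in CD45 WT, a log2 difference of -1.50 (SE 0.10, edgeR adjusted p = 3.01e-08), with -1.76 (SE 0.09, edgeR adjusted p = 7.54e-08) in KO. Hs2st1, which sulfates the uronic acid, was at 98.1 to 118 CPM in the flow-through and at 29.8 to 44.6 CPM in CD45, with -1.07 (SE 0.09, edgeR adjusted p = 3.00e-07) in WT and -1.08 (SE 0.14, edgeR adjusted p = 4.86e-05) in KO. Fractions did not overlap in CPM for any of the 10 genes in either genotype, where 82.9% of genes in WT and 80.9% in KO did not; 9 of the 10 were lower, beside 57.8% of all genes in WT and 54.5% in KO.

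Levels of different genes are compared as CPM per kb of exon. In flow-through WT libraries the median levels ran from Ndst1 at 69.1 and Sulf2 at 68.3, which overlapped each other, through Hs2st1 at 13.3, Hs3st1 at 10.8, Hs6st1 at 9.03 and Ext1 at 5.91, whose libraries did not overlap with their neighbours in this order. Hs3st3b1 at 0.81, Hs6st2 at 0.73, Hs3st2 at 0.37 and Hs3st4 at 0.29 CPM per kb closed the order, each overlapping the next. In flow-through KO libraries Hs3st2 was at 1.42 CPM per kb and stood apart from Ext1 above it and Hs6st2 below it. In CD45 WT libraries Ndst1 at 16.3 and Sulf2 at 15.5 CPM per kb again led and overlapped, followed by Hs6st1 at 7.60, Hs2st1 at 4.38, Ext1 at 4.19 and Hs3st3b1 at 1.72. Hs3st1 was at 0.59 CPM per kb there, and Hs3st2 at 0.10, Hs6st2 at 0.06 and Hs3st4 at 0.04 overlapped from each to the next. Hs3st1 was thus above Hs3st3b1 in the flow-through and below it in CD45 cells.

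The make-up of the 3-O-sulfotransferase family differed accordingly. Of the summed CPM per kb of the 7 Hs3st genes, Hs3st1 took 73.1 to 83.0% in flow-through libraries and 17.5 to 28.7% in CD45 libraries. Hs3st3b1 took 3.71 to 8.09% in the flow-through and 48.1 to 76.9% in CD45 libraries. Hs3st2 took 2.05 to 4.16% in flow-through WT and 7.18 to 10.5% in flow-through KO. In CD45 libraries it took 1.64 to 4.65% in WT and 3.49 to 17.9% in KO. Of the Ndst genes, Ndst1 took 91.3 to 92.7% in flow-through and 49.6 to 59.1% in CD45 libraries, and Ndst2, the form known from mast cell heparin, took 6.78 to 8.05% and 40.1 to 50.3%.

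**Figure D3:**
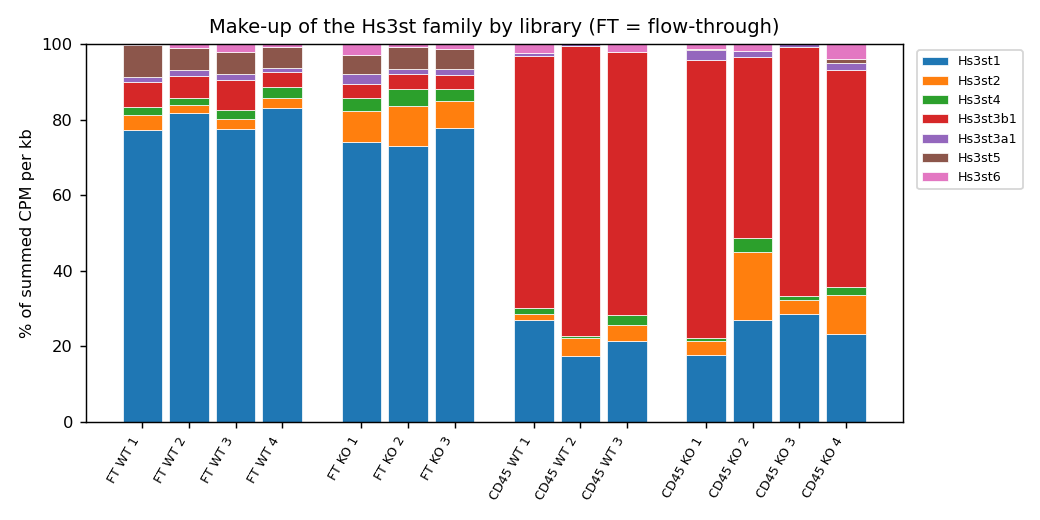
Share of each of the 7 Hs3st genes in their summed CPM per kb of exon, 1 stacked bar per library. Hs3st1 takes 73.1 to 83.0% in flow-through and 17.5 to 28.7% in CD45 libraries, where Hs3st3b1 takes 48.1 to 76.9%.

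Markers of excitatory neurons moved with Hs3st2. The 12 markers summed to 207 to 325 CPM in the 4 flow-through WT libraries and to 500 to 745 CPM in the 3 KO libraries, with no overlap; 3 of the 12 (Slc17a7, Nrgn and Cck) were called higher in KO by edgeR, beside 1.42% of all genes tested, 10 had a positive log2 fold change with a median of 0.65, and none was at 0 in all libraries of a fraction. The 10 markers of all neurons, whose sums overlapped at 830 to 979 and 865 to 1159 CPM, held 1 gene called higher (Syn1), beside the same 1.42%. Of these 10, 8 had a positive log2 fold change, with a median of 0.51. Of 6 inhibitory neuron markers tested, 1 was called lower (Gad2), beside 0.151% of all genes, and 4 had a positive log2 fold change, with a median of 0.19. For each 1000 CPM of excitatory markers, Hs3st2 was at 4.78, 3.44, 5.07 and 3.63 CPM in flow-through WT and at 5.80, 8.13 and 7.48 CPM in flow-through KO. With this divisor the KO libraries, on which Hs3st2 was chosen, lay above the WT libraries by less than without it. The 12 markers had log2 fold changes of -0.21 to 1.81, so the value of this ratio depends on which markers are summed. In CD45 libraries the same ratio overlapped between genotypes, at 5.94 to 8.15 CPM in WT and 4.76 to 19.1 CPM in KO, and KO replicate 3 was below every WT library. The part of excitatory neuron content in the level of Hs3st2 was not tested. In CD45 libraries the same markers summed to 20.8 to 42.6 CPM in WT and 28.5 to 104 CPM in KO (exact two-sided permutation p = 0.171, n = 3 and 4), and the KO library highest in Hs3st2 was also the highest in these markers.

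**Figure D4:**
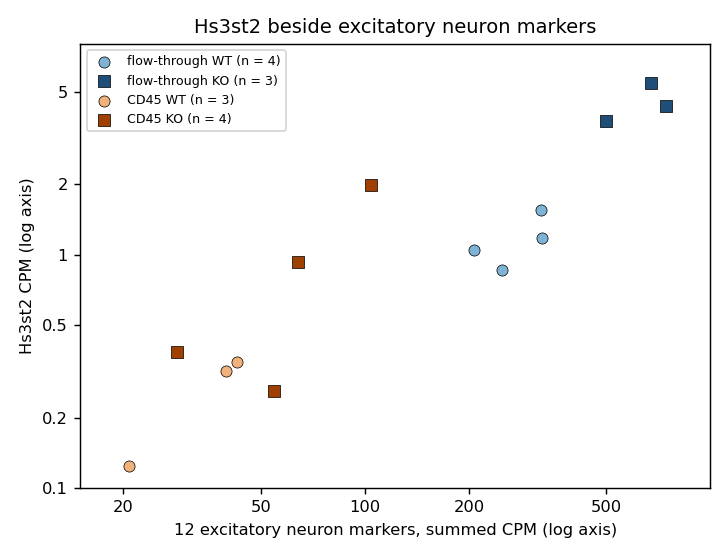
Hs3st2 against the summed CPM of 12 excitatory neuron markers, both on log axes, 1 point per library. The 3 flow-through KO libraries lie highest on both axes, at 500 to 745 CPM of markers and 3.74 to 5.47 CPM of Hs3st2, and the 7 CD45 libraries lie lower on the marker axis, at 20.8 to 104 CPM.

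The genes with the profile most like that of Hs3st2 were ranked by the root mean square difference of centred log2 CPM over the 14 libraries, among 16060 genes. Egr4, an immediate early transcription factor, was closest at 0.42, followed by Rprml at 0.42, Efna3, an ephrin-A ligand, at 0.50, Kcnj4, an inward rectifier potassium channel, at 0.50 and Tmem63c at 0.51. Egr4 was at 1.17 to 2.11 CPM in flow-through WT, 3.70 to 5.55 CPM in flow-through KO and 0.206 to 2.18 CPM in CD45 libraries. The nearest other member was Hs3st4 at 0.75 and the farthest Hs3st3b1 at 1.99. The points share libraries and depth, so these distances are descriptions.

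The other genes of the pathway were taken from lists of 65 genes: linker and chain synthesis, further modifying enzymes, sulfate donor supply, core proteins, lysosomal degradation, and the related chondroitin and dermatan sulfate enzymes. Between genotypes in the flow-through, 1 of the 60 tested was called beside 1.57% of all genes. It was Extl1, an exostosin-like glycosyltransferase, at 3.28 to 3.75 CPM in WT and at 5.24 to 7.10 CPM in KO libraries, which did not overlap, and it rose by a log2 ratio of 0.86 (SE 0.17, edgeR adjusted p = 0.0219). The call was lost, with the direction kept, when any of 5 of the 7 libraries was left out (WT replicate 2, 3 or 4, or KO replicate 1 or 2), with a log2 ratio of 0.75 to 0.98 over all 7 such fits and edgeR adjusted p from 0.0167 to 0.139. It was also lost with the GC trend removed (edgeR adjusted p = 0.0705) and in 1 fit of all 14 libraries (edgeR adjusted p = 0.662). The excitatory neuron markers above were higher in the same KO libraries, and the part of neuron content in the level of Extl1 was not tested. In CD45 cells none of 60 tested was called between genotypes, beside 0% of all genes.

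Between fractions, 62 of the 65 were tested. In WT, 28 rose and 25 fell in CD45 cells, beside 40% of all genes called higher and 41.7% called lower, and in KO 27 rose and 25 fell, beside 38.1% and 40.8%. In both genotypes 26 rose and 23 fell, and none was called in opposite directions. Scaled by library totals alone, 21 rose and 33 fell in WT and 22 rose and 32 fell in KO, so the balance between the directions depends on the scaling; over all genes the split of 6996 higher and 7293 lower in WT became 4417 and 10146, and the 6484 and 6949 of KO became 4507 and 9170.

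Among the further modifying enzymes, 7 of 10 were tested, and 2 rose and 4 fell in each genotype, beside the shares of all genes given above. Hpse, Hs3st5 and Hs3st3a1 are among those called, although each passed the filter on low counts through 1 fraction only, as did Ndst3 in WT. Ndst2 rose, from 21.5 to 29.9 CPM over flow-through libraries to 55.6 to 67.7 CPM over CD45 libraries, with a log2 difference of 1.96 (SE 0.09, edgeR adjusted p = 2.03e-09) in WT and 1.63 (SE 0.11, edgeR adjusted p = 4.28e-07) in KO. Hpse, which encodes heparanase, was at 0 to 4 counts in each flow-through library and at 12.7 to 24.3 CPM in CD45 libraries. Its fitted log2 differences were 8.49 (SE 0.36) in WT and 8.25 (SE 0.44) in KO. It passed the filter on low counts only through the CD45 libraries, so no p is given. Sulf1, the second 6-O-endosulfatase, was at 49.99 to 74 CPM in the flow-through and at 1.12 to 3.78 CPM in CD45 libraries, a log2 difference of -4.13 (SE 0.25, edgeR adjusted p = 6.22e-08) in WT. Hs3st5 was at 3.33 to 4.50 CPM in the flow-through and had no count in any CD45 WT library, which makes it at least 94.6-fold lower there when 3 counts over the group are taken as the floor; in CD45 KO 2 of 4 libraries held 1 and 3 counts. Ndst3 and Hs3st3a1 also fell, with -2.96 (SE 0.27) and -3.40 (SE 0.62) in WT, while Ndst4, Hs6st3 and Hs3st6 had too few counts to test. In KO the falls of Ndst3 and Hs3st3a1 were smaller, at -1.67 (SE 0.52) and -1.90 (SE 0.47). With 1 library left out, that of Ndst3 in KO ranged from -2.38 to -1.24. Without CD45 WT replicate 1 the difference of Hs3st3a1 in WT was -4.31. The fitted value of Hpse was 9.41 without flow-through WT replicate 4 and 9.16 without flow-through KO replicate 1.

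Of the 8 enzymes of lysosomal degradation, 6 were called higher and 1 lower in WT, beside 40% and 41.7% of all genes tested, and 5 higher and 2 lower in KO, beside 38.1% and 40.8%, with medians of 2.16 and 1.86 beside -0.02 and -0.04 over all genes. Scaled by library totals, 5 were higher and 2 lower in each genotype. Gusb, the beta-glucuronidase, was at 16.3 to 22.1 CPM in the flow-through and at 296 to 457 CPM in CD45 libraries, a log2 difference of 4.84 (SE 0.12, edgeR adjusted p = 1.04e-11) in WT and 4.66 (SE 0.16, edgeR adjusted p = 4.27e-09) in KO. Of the 13 core proteins, 8 were called lower and 2 higher in WT, and 7 lower and 2 higher in KO, beside the same shares of all genes. Gpc5, Gpc6 and Gpc4, which are glypicans anchored in the membrane by a lipid, had log2 differences of -6.11 (SE 0.27), -5.26 (SE 0.33) and -4.23 (SE 0.38) in WT, with -5.93 for Gpc6 without CD45 WT replicate 3. These glypicans are among those called lower, although in WT each passed the filter on low counts only through the flow-through libraries. Sdc2, a transmembrane syndecan, was at 49.9 to 58.1 CPM in the flow-through and at 0.988 to 2.68 CPM in CD45 libraries, a log2 difference of -4.81 (SE 0.15, edgeR adjusted p = 6.69e-11) in WT.

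The lists that follow stand beside 40% of all genes called higher and 41.7% lower in WT, and 38.1% and 40.8% in KO. Chain synthesis was split, with 4 called higher and 5 lower of 11 in each genotype, against 3 and 7 in WT and 2 and 7 in KO with library totals. Ext2, the partner of Ext1 in the polymerase, had -0.22 (SE 0.08, edgeR adjusted p = 0.023) in WT and -0.35 (SE 0.09, edgeR adjusted p = 0.00398) in KO, Extl1 -1.39 (SE 0.27) and -1.88 (SE 0.41), and Extl2, a glycosyltransferase that can cap the linker, -1.08 (SE 0.11) and -0.90 (SE 0.12). Extl3, which starts the chain, was not called, at 0.19 (SE 0.09) and 0.01 (SE 0.08). Of the 7 genes of sulfate donor supply 4 rose and 1 fell in each genotype, a direction that did not hold with library totals, where 1 rose and 3 fell in WT and 3 rose and 3 fell in KO. Of the 16 chondroitin and dermatan sulfate enzymes 10 rose and 6 fell in each genotype with TMM scaling, a balance that may depend on the scaling. Among those that rose was Chst13, a chondroitin 4-O-sulfotransferase, with a fitted 5.98 (SE 0.67) in WT from at most 2 counts in any flow-through library.

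**Figure D5:**
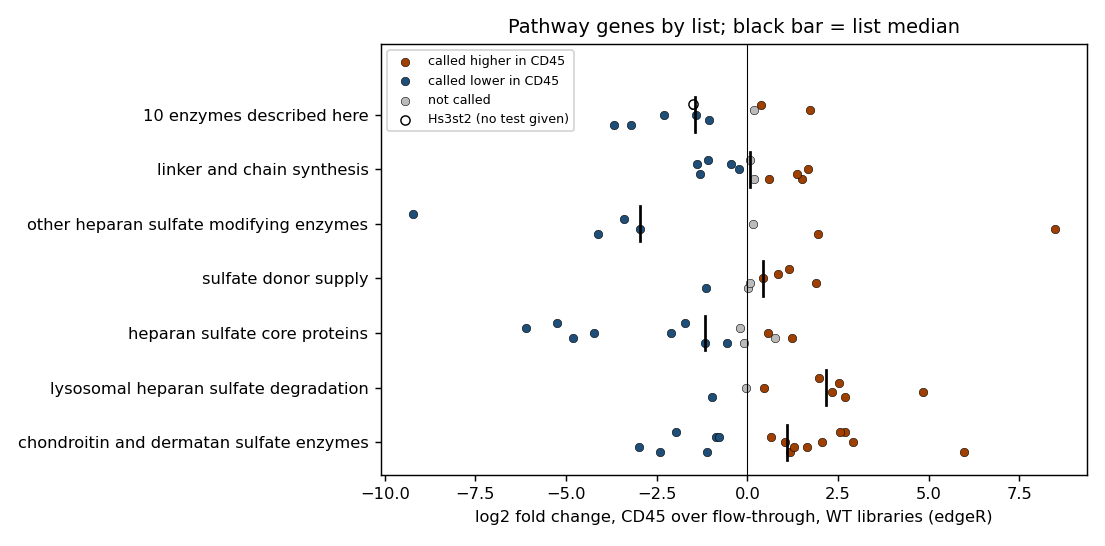
Log2 fold change of CD45 over flow-through in WT libraries for the 10 enzymes and the tested genes of the 6 pathway lists; each point is a gene, coloured by its edgeR call at an adjusted p under 0.05, the open point is Hs3st2, and the black bar is the list's median. Lysosomal degradation has a median of 2.16 and the 10 enzymes one of -1.45; the leftmost point, Hs3st5, and the rightmost, Hpse, are fitted values against groups at or near 0 counts.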

How the data were processed

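The authors deposited 1 table of raw gene counts per fraction, each with a companion table of normalized signal that is the deposited counts divided by 1 size factor per library; the range of that ratio within a library was at most 1.4e-14, and only the counts were used. Per the labels' protocols, the kit was Illumina's TruSeq Stranded mRNA, with 14 cycles of amplification. Trim Galore, FastQC, STAR 2.7.9a, DESeq2 and the build GRCm38 are named in the submitters' processing notes; which tool counted reads, with which annotation and whether by strand, is not given in the sources used here. Gene IDs were matched to GENCODE M21 (33130 of 33223), which gave names, positions and exon lengths.

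Levels are counts over the library total (CPM), and differences come from edgeR 4.0.16 (R 4.3.3) with TMM scaling, filterByExpr and the robust quasi-likelihood test, adjusted by Benjamini-Hochberg over all genes tested; a gene was called at an adjusted p under 0.05. Each of the 4 pairwise comparisons was fitted on its own libraries, and the interaction on all 14. DESeq2 1.42.0 and other scalings, filters and left-out libraries are alternatives; scaling by library totals alone was chosen after seeing the data. Exact permutation tests ran over libraries. PCR reads carry no molecular identifiers, so counts overstate precision. On simulated counts for the flow-through comparison (16546 genes), 84 of 100 genes changed 2-fold and 99 of 100 changed 4-fold were recovered, and 13 unchanged genes were called. For genotypes in the CD45 fraction, 72 and 94 of 100 were recovered, and 6 unchanged genes were called. The changed genes were drawn only from genes with higher counts, so these shares do not hold for genes with few counts.

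The members and lists were chosen with earlier results of these data known. Beside the members, the named genes are, per comparison, up to 8 called pathway genes with the largest differences and a mean of at least 1 CPM in a group, the other genes of the Hs3st, Hs6st, Ndst, Ext and Sulf families, and the 5 genes most like Hs3st2 (prior count 2, total count at least 200), with up to 3 markers per cell type. Promoter windows are RefSeq's (GRCm38.p6).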

Additional observations from a re-analysis of the deposited data

Results flagged for a closer look

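In the library labelled flow-through WT replicate 5, which stands in the CD45 count table and enters no comparison, Hs3st3b1 was at 10.4 CPM, above the 4 flow-through WT libraries (highest 5.28 CPM) and the 3 CD45 WT libraries (highest 9.33 CPM), and within the 4 CD45 KO libraries (7.86 to 11.9 CPM). It was listed because it is a signal outside the libraries compared. In the 20 groups of 4 libraries searched for a library standing apart from the others, over the 10 enzymes, none was found. Flow-through KO and CD45 WT, with 3 libraries each, were not searched. The value of Hs3st2 in CD45 KO replicate 2, at 1.99 CPM, did not reach the threshold of this search.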

How the results depend on the processing

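Genes called between genotypes in the flow-through numbered 260 as reported, 629 with no filter on low counts, 436 with DESeq2, 30 in 1 fit of all 14 libraries, 0 with the library of conflicting label (WT flow-through, replicate 5) entered under its label, and 134 to 287 with 1 library left out; of the members, 0 were called in that joint fit and 0 with that library entered. In the 7 fits that left out 1 library the log2 ratio of Hs3st2 ranged from 1.81 to 2.15. Those fits reuse the flow-through libraries that chose the gene, so the range is a description only. The cause of the changes in the numbers called was not tested. In CD45 cells DESeq2 called 10 genes between genotypes and leaving out 1 library gave 0 to 1. The interaction gave 15 genes with no filter, 46 with DESeq2 and 0 to 2 with 1 library left out.

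Between fractions in WT, entering that library as labelled gave 5645 genes called. Hs3st4 (-2.05), Hs3st3b1 (1.06, edgeR adjusted p = 0.143) and Hs6st1 (0.24, edgeR adjusted p = 0.177) were no longer called there. Placed with CD45 WT, the library took Hs3st2 to -0.91. Genes called numbered 13593 to 14428 in WT and 12829 to 13221 in KO with 1 library left out. Upper-quartile scaling gave 5420 genes higher and 8768 lower in WT and 5367 and 8129 in KO, and moved the median log2 difference of all genes to -0.358 and -0.297. It took Ext1 to -0.16 in WT and -0.22 in KO and Hs6st1 to 0.02 and -0.0522; library totals alone took Ext1 to -0.43 and -0.45 and Hs6st1 to -0.26 and -0.28. With the GC trend removed Ext1 was at -0.0352 and Hs6st1 at 0.41 in KO, and without CD45 KO replicate 2 Hs6st1 was at 0.27 there, called in both cases. In CD45 cells, between genotypes, log2 fold changes near 0 changed sign when 1 library was left out: Ext1 ranged from -0.121 to 0.0247 (positive without WT replicate 2), Hs3st3b1 from -0.0881 to 0.138 (negative without KO replicate 1), and Hs6st2 from -0.513 to 0.0597 (positive without KO replicate 1, and without WT replicate 3).

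No paired analysis was possible because the labels give the groups no shared replicate numbers. That library was entered as labelled only in comparisons that use flow-through WT. Depth limits Hs3st2 and Hs3st4 in CD45 cells, at 1 to 41 counts per library.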
